A study of Mus musculus with 12 samples.

Results

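Liver stores glucose as glycogen, and the transcripts described here encode 8 proteins that build, break down or control that store: Gys2, Pygl, Ppp1r3b, Ppp1r3c, Ppp1r3g, Gbe1, Ugp2 and Phka2. They were chosen by gene symbol for their role in glycogen metabolism, with earlier results of these data known. They are 8 of the 38926 symbols counted in each liver. Of the 8, 7 had enough reads to be tested, and Ppp1r3g did not. The question was how these transcripts differed between wild-type and Rev-erbα-/- livers, and between ZT8 and ZT20, where ZT (zeitgeber time) is counted in hours from lights on.

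Glucose enters the hepatocyte, is phosphorylated to glucose 6-phosphate, and is converted to UDP-glucose by the UDP-glucose pyrophosphorylase encoded by Ugp2. Glycogen synthase, in liver the product of Gys2, adds these units to a growing chain, and the branching enzyme encoded by Gbe1 introduces the branch points. Glycogen phosphorylase, in liver the product of Pygl, releases glucose 1-phosphate again, and is switched on by phosphorylase kinase, of which Phka2 encodes the liver regulatory α subunit. Protein phosphatase 1 (PP1) has the opposite effect, activating the synthase and inactivating the phosphorylase, and is brought to the glycogen particle by targeting subunits such as those encoded by Ppp1r3b, Ppp1r3c and Ppp1r3g. REV-ERBα, the product of Nr1d1, is a nuclear receptor of the circadian clock that represses transcription, and liver glycogen itself follows a daily cycle of feeding and fasting.

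The animals were male mice of 12 weeks on a mixed 129Ola/C57BL6 background, kept in a cycle of light and dark with free access to food. There were 4 groups of 3 mice, namely wild-type at ZT8, Rev-erbα-/- at ZT8, wild-type at ZT20 and Rev-erbα-/- at ZT20, with ZT8 in the light and ZT20 in the dark. The knock-out (labelled Rev KO) is not limited to the liver, the animals came from heterozygous breeding pairs, and no other allele or agent was used in any group. Whole-liver poly(A) RNA was sequenced, 1 library per mouse, so that fewer cells of a type and less RNA per cell cannot be told apart.

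Between 17641809 and 26060192 reads per library were counted on genes. Levels are given as CPM, that is counts scaled per 1e+06 reads after scaling of the library sizes by the TMM method, and 3 counts correspond to 0.1168 to 0.1666 CPM depending on the library. Summed transcripts of 5 hepatocyte markers reached 48324 to 102172 CPM, whereas 5 skeletal muscle markers summed to 0 to 0.134 CPM and 5 leukocyte markers to 1.68 to 8.00 CPM. Reads on Nr1d1 remained in the Rev-erbα-/- livers, at 63.0, 71.8 and 80.5 CPM at ZT8 against 129, 96.1 and 75.3 CPM in wild-type livers. At ZT20 they were at 3.57, 2.96 and 2.09 CPM against 2.28, 1.86 and 2.15 CPM. Because the counts do not separate exons, this does not check the deletion. Arntl, a clock gene repressed by REV-ERBα, was at 24.2, 25.7 and 22.7 CPM in the Rev-erbα-/- livers at ZT8 against 0.795, 0.448 and 0.711 CPM in wild-type.

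The wild-type libraries at ZT8 did not form a uniform group. The summed level of 6 acute-phase transcripts (Saa1, Saa2, Saa3, Orm2, Lcn2 and Hp) was 2033 CPM in wild-type replicate 1 and 16799 and 21479 CPM in replicates 2 and 3 at ZT8, against 1705 to 2578 CPM in all 9 other libraries. Alignments to more than 1 place per counted read were also more frequent at ZT8 (1.763 to 3.278) than at ZT20 (1.244 to 1.672), and were at 1.76, 2.89 and 3.28 in the wild-type ZT8 replicates 1, 2 and 3. Values with some of these wild-type mice left out are therefore given beside the differences at ZT8 and those between times in wild-type livers, and the part that this difference plays in the results was not tested. With replicate 1 alone the spread of that group is not measured, so such fits are given by the size of the difference.

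To show the sequence next to which the members are transcribed, the bases before each RefSeq transcription start (GRCm38.p6) were searched on both strands for short motifs. The table used held 6 of the 8 members, and Gys2 and Ppp1r3b were not in it. The motifs were the E-box CACGTG of the clock activators (in 6.02% of 32851 mouse promoter windows of the same 250 bases), the core site AGGTCA bound by REV-ERB and ROR proteins (14%) and its extension TAGGTCA (2.23%), the cAMP response core TGACG (17.8%), the D-box TTANNTAA (5.43%), the glucocorticoid response element (0.387%), the FOXO site GTAAACA (3.17%) and the SREBP site TCACNCCA (3.67%). AGGTCA is contained in TAGGTCA, so that these 2 counts overlap. Ppp1r3c, the member with the largest fold change between times in wild-type livers, carried a single match, an E-box that starts at position -104 from the start site. Pygl carried AGGTCA at position -128 and TGACG at position -44, both on the reverse strand, and Ppp1r3g carried TGACG at position -40. The windows of Gbe1 and Phka2 and the 2 windows of Ugp2, each before a different start, held none of these letters. The first sequence below covers the 201 bases of the Ppp1r3c window that lie before its first annotated exon (chr19:36736654-36736854, mm10, minus strand), shown for the E-box in capitals, and the second the 250 bases before the Pygl start (chr12:70227684-70227933, mm10, minus strand), shown because it alone among the 6 members searched held the AGGTCA core site, with both matches in capitals. The Pygl window lies inside the gene as annotated (chr12:70190811-70231488, minus strand). The Ppp1r3g window likewise lies inside its gene (chr13:35958839-35970388, plus strand) and runs into an annotated exon before its match. Of the 2 Ugp2 windows, that at chr11:21370630-21370879 lies inside the gene as annotated (chr11:21321138-21371201, minus strand). A match describes the letters and does not show that a factor binds there.
Ppp1r3c: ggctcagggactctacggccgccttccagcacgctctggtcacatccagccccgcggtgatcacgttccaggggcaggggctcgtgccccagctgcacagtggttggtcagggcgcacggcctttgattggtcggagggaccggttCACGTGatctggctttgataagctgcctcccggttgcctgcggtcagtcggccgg
Pygl: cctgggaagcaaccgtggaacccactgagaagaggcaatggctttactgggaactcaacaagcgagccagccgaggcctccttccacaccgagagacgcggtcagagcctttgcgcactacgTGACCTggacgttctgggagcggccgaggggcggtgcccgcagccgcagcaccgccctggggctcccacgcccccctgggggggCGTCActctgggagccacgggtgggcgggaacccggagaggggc

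The comparisons, 5 in all, were made in a single edgeR quasi-likelihood fit of the 14488 genes tested, with p-values adjusted by the Benjamini-Hochberg method over all of them, and a gene was called at an adjusted p-value below 0.05. In wild-type livers 5 of the 7 tested members differed between ZT20 and ZT8, with Ppp1r3b and Ppp1r3c higher and Gys2, Ugp2 and Phka2 lower at ZT20, where 27.7% of all genes tested were called. In Rev-erbα-/- livers 2 of 7 did, Ppp1r3c higher and Gys2 lower at ZT20, where 17.5% of all genes were called. Between genotypes, 2 of 7 differed at ZT8, with Ppp1r3b higher and Gys2 lower in Rev-erbα-/- livers (8.45% of all genes called), and 0 of 7 at ZT20 (3.63% of all genes called). At ZT20 DESeq2 called 0 members as well, and 0 had an unadjusted p-value under 0.05 (edgeR). The genotype difference at ZT8 was set against that at ZT20 in an interaction term, which called 0 of 7 members (5.88% of all genes called). However, Gys2, Ppp1r3b, Ppp1r3c, Ugp2 and Phka2 were at an unadjusted p-value under 0.05 (edgeR), and DESeq2 called 2, Gys2 and Ppp1r3b. Of all 14488 genes, 3404 at ZT8, 2116 at ZT20 and 2844 in the interaction were at an unadjusted p-value under 0.05 (edgeR). The median log2 fold change of the members was 0.05 at ZT8 and 0.01 at ZT20 between genotypes, and 0.23 in wild-type and -0.02 in Rev-erbα-/- livers between times, while the median over all genes tested lay between -0.0007 and 0.0063. The comparisons share groups: the wild-type ZT8 livers enter the genotype comparison at ZT8, the time comparison in wild-type and the interaction. The spread of each gene was estimated over all 4 groups together, so these livers also enter the SE of the other comparisons.

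**Figure D1:**
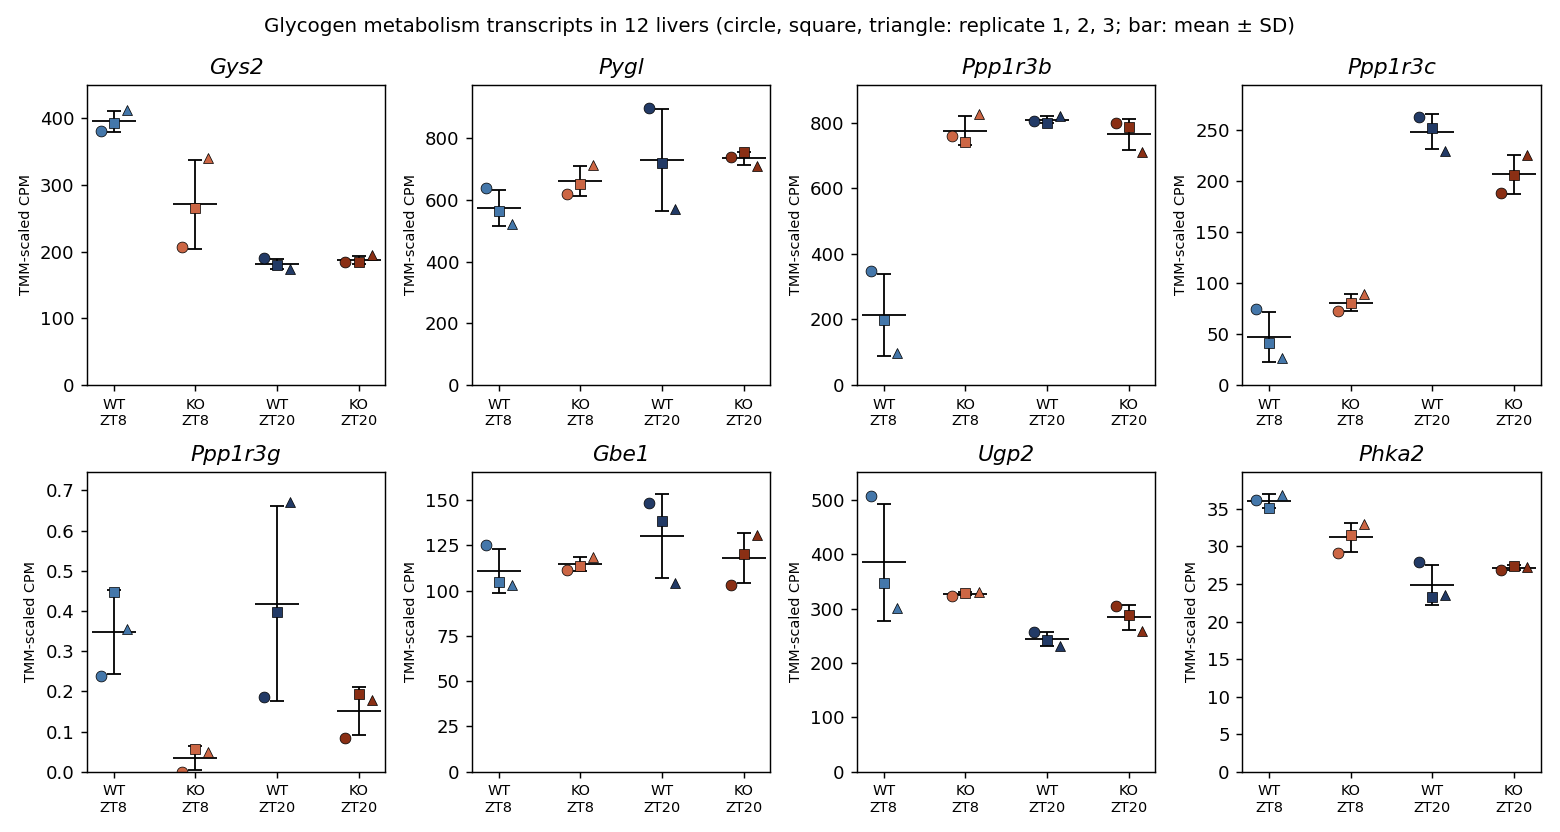
TMM-scaled CPM (y axis, from 0, a separate scale per gene) of the 8 members in the 4 groups (x axis, WT: wild-type, KO: Rev-erbα-/-). Points are single livers (circle, square and triangle: replicate 1, 2 and 3) and bars the mean ± SD of 3. Ppp1r3b was at 99.0 to 346 CPM in wild-type at ZT8 and at 709 to 827 CPM in all 9 other livers, and Gys2 was at 381 to 413 CPM in wild-type at ZT8 and at 340 CPM or less elsewhere.

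Among the synthesis enzymes, Gys2 encodes the liver glycogen synthase (chr6:142422613-142473109, mm10, minus strand). Gys2 was at 381, 393 and 413 CPM in wild-type and 208, 265 and 340 CPM in Rev-erbα-/- livers at ZT8. At ZT20 it was at 190, 180 and 174 CPM in wild-type and 185, 184 and 195 CPM in Rev-erbα-/- livers. The wild-type livers at ZT8 were above all others, the Rev-erbα-/- livers at ZT8 were spread between them and the ZT20 livers, and the genotypes overlapped at ZT20. Gys2 thus fell by 31.5% in Rev-erbα-/- livers at ZT8 (log2 fold change -0.55, SE 0.13, edgeR adjusted p = 0.0162). From ZT8 to ZT20 it fell by 54.1% in wild-type (log2 fold change -1.12, SE 0.13, edgeR adjusted p = 1.73e-05) and fell by 30.6% in Rev-erbα-/- livers (-0.53, SE 0.13, edgeR adjusted p = 0.0108). Its genotype difference at ZT20 was 0.05 on the log2 scale, with an interval of 2 SE from -0.20 to 0.31, and the interaction was -0.60 (SE 0.18, edgeR adjusted p = 0.0686).

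The direction of the Gys2 difference at ZT8 was the same without any one liver, but the call was not. Without wild-type ZT8 replicates 2 and 3 the log2 fold change was -0.49, with a single wild-type liver assumed to vary like the other groups. The call was lost without wild-type ZT8 replicate 2 (-0.55, edgeR adjusted p = 0.0604), replicate 3 (-0.51, adjusted p = 0.0618) or Rev-erbα-/- ZT8 replicate 2 (-0.53, adjusted p = 0.0741). The fall from ZT8 to ZT20 in wild-type was -1.08 without wild-type ZT8 replicates 2 and 3. The fall in Rev-erbα-/- livers was not called in a fit of those 6 livers alone (-0.53, adjusted p = 0.0596).

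Ugp2, which encodes the enzyme that makes UDP-glucose (chr11:21321138-21371201, mm10, minus strand), was at 507, 348 and 302 CPM in wild-type and 324, 329 and 330 CPM in Rev-erbα-/- livers at ZT8. At ZT20 the values were 257, 243 and 232 CPM in wild-type and 305, 289 and 260 CPM in Rev-erbα-/- livers. Wild-type replicate 1 at ZT8 was far above the rest of its group, the genotypes overlapped at ZT8, and at ZT20 every Rev-erbα-/- liver was above every wild-type liver by a narrow margin. In wild-type livers Ugp2 fell by 36.7% from ZT8 to ZT20 (log2 fold change -0.66, SE 0.14, edgeR adjusted p = 0.0038). The fall was -1.06 with ZT8 replicate 1 alone and -0.42 without it (adjusted p = 0.0025, called). Its time difference in Rev-erbα-/- livers was -0.20 (2 SE interval -0.49 to 0.08, edgeR adjusted p = 0.373). The genotype difference at ZT8 depended on which wild-type livers entered. It was -0.23 with all (edgeR adjusted p = 0.354), -0.63 with replicate 1 alone and 0.0090 without replicate 1 (adjusted p = 0.968). The interaction for Ugp2 was -0.46 with all livers (adjusted p = 0.230) and -0.86 with wild-type ZT8 replicate 1 alone.

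Gbe1, the branching enzyme (chr16:70313949-70569716, mm10, plus strand), was at 125, 105 and 103 CPM in wild-type and 111, 113 and 119 CPM in Rev-erbα-/- livers at ZT8. The ZT20 livers were at 148, 139 and 104 CPM in wild-type and 103, 120 and 130 CPM in Rev-erbα-/- livers. All 4 groups overlapped. The log2 fold change between genotypes was 0.05 at ZT8 (2 SE interval -0.20 to 0.29) and -0.14 at ZT20 (-0.39 to 0.10), and the time difference was 0.23 in wild-type (-0.01 to 0.48) and 0.04 in Rev-erbα-/- livers (-0.20 to 0.29), none of them called by edgeR. With wild-type ZT8 replicate 1 alone the genotype difference at ZT8 was -0.13 and the time difference in wild-type 0.06, and without that replicate they were 0.14 and 0.32, again not called. The time difference was called without wild-type ZT20 replicate 3 (0.36, adjusted p = 0.0235).

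On the side of breakdown, Pygl, the liver phosphorylase (chr12:70190811-70231488, mm10, minus strand), had its widest spread in wild-type livers at ZT20. It was at 637, 563 and 521 CPM in wild-type and 619, 650 and 713 CPM in Rev-erbα-/- livers at ZT8. Levels at ZT20 were 898, 718 and 569 CPM in wild-type and 738, 754 and 710 CPM in Rev-erbα-/- livers. The wild-type livers at ZT20 spanned the whole range of the Rev-erbα-/- livers at both times. With all livers edgeR called no difference: the log2 fold change between genotypes was 0.20 at ZT8 (2 SE interval -0.07 to 0.47) and 0.01 at ZT20 (-0.26 to 0.28). The time difference in wild-type, 0.34 (SE 0.13), had an edgeR adjusted p of 0.0709, and DESeq2 called it (0.34, adjusted p = 0.0476). In edgeR it was called without wild-type ZT8 replicate 1 (0.41, adjusted p = 0.0411) or ZT20 replicate 3 (0.48, adjusted p = 0.0100) and was 0.19 with ZT8 replicate 1 alone. The genotype difference at ZT8 was 0.05 with wild-type replicate 1 alone and 0.28 without it (adjusted p = 0.221).

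Phka2, the regulatory subunit of phosphorylase kinase (chrX:160502166-160598878, mm10, plus strand), varied little among replicates. It was at 36.2, 35.1 and 36.9 CPM in wild-type and 29.2, 31.5 and 33.0 CPM in Rev-erbα-/- livers at ZT8. At ZT20 it stood at 28.0, 23.3 and 23.5 CPM in wild-type and 26.8, 27.5 and 27.3 CPM in Rev-erbα-/- livers. As for Gys2, the wild-type livers at ZT8 were above all others, without overlap with the Rev-erbα-/- livers at ZT8. Phka2 fell by 30.9% from ZT8 to ZT20 in wild-type (log2 fold change -0.53, SE 0.08, edgeR adjusted p = 0.000176), and the fall was -0.54 without wild-type ZT8 replicates 2 and 3. Its genotype difference at ZT8 was -0.21 (SE 0.08, edgeR adjusted p = 0.130) and its time difference in Rev-erbα-/- livers -0.20 (SE 0.08, adjusted p = 0.104), neither called. Ugp2 shares 78 and Phka2 115 exon bases with an annotated transcript on the opposite strand (Gm12043 and Gm15243). Strand was ignored in counting, so reads on these bases could not be assigned by strand. Where the counting annotation held both genes, union mode set such reads aside as ambiguous and counted them for neither.

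Among the PP1 targeting subunits, Ppp1r3b had the largest genotype difference of the tested members. Ppp1r3b encodes the subunit known as GL, the main one of liver (chr8:35375739-35388139, mm10, plus strand). It was at 346, 197 and 99.0 CPM in wild-type and 759, 742 and 827 CPM in Rev-erbα-/- livers at ZT8. At ZT20 it was at 806, 800 and 822 CPM in wild-type and 798, 786 and 709 CPM in Rev-erbα-/- livers. Only the wild-type livers at ZT8 were low, all 3 of them below the other 9, and replicates 1 and 3 of that group were farther apart than any pair within another group. Ppp1r3b was 3.62-fold higher in Rev-erbα-/- livers at ZT8 (log2 fold change 1.86, SE 0.35, edgeR adjusted p = 0.0132). In wild-type livers it rose 3.77-fold from ZT8 to ZT20 (1.92, SE 0.35, edgeR adjusted p = 0.0036). In Rev-erbα-/- livers the time difference was -0.02, with a 2 SE interval from -0.71 to 0.66. The genotype difference at ZT20 was -0.08 (2 SE interval -0.77 to 0.60), although the genotypes did not overlap there. The fit uses a single estimate of spread per gene for all 4 groups. The wild-type ZT8 livers (SD 125 CPM) therefore widen these 2 intervals too. The SD was 11.0 CPM in wild-type and 48.3 CPM in Rev-erbα-/- livers at ZT20, and 44.7 CPM in Rev-erbα-/- livers at ZT8.

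The interaction for Ppp1r3b was 1.94 (SE 0.49) with an edgeR adjusted p of 0.0535, so that the difference between its genotype effects at ZT8 and ZT20 did not pass the threshold with all livers. The spread of the wild-type ZT8 group enters this value. With wild-type ZT8 replicate 1 alone, where that spread was not measured, the genotype difference at ZT8 was 1.16 and the interaction 1.24, both smaller than with all livers. Without replicate 1 they were 2.38 (adjusted p = 0.000115) and 2.46 (adjusted p = 0.000528). The genotype call was lost without wild-type ZT8 replicate 2 (1.80, adjusted p = 0.0616), where replicates 1 and 3 were left as the most distant pair. Without replicate 3 the genotype difference was 1.51 (adjusted p = 0.000291). The rise from ZT8 to ZT20 in wild-type was 1.22 with replicate 1 alone and 2.44 without it (called).

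Ppp1r3c, which encodes the subunit known as PTG (chr19:36731731-36736653, mm10, minus strand), is the member whose upstream sequence carried the E-box shown above. It was at 74.7, 40.8 and 27.0 CPM in wild-type and 72.4, 81.0 and 89.5 CPM in Rev-erbα-/- livers at ZT8. At ZT20 the values were 263, 253 and 230 CPM in wild-type and 188, 207 and 226 CPM in Rev-erbα-/- livers. All ZT20 livers were above all ZT8 livers. At ZT8 wild-type replicate 1 lay within the range of the Rev-erbα-/- livers and replicates 2 and 3 below it, and at ZT20 the wild-type livers were slightly above the Rev-erbα-/- livers. Ppp1r3c rose 5.22-fold from ZT8 to ZT20 in wild-type (log2 fold change 2.38, SE 0.31, edgeR adjusted p = 0.000563) and 2.55-fold in Rev-erbα-/- livers (1.35, SE 0.30, edgeR adjusted p = 0.0155). The rise in wild-type was 1.73 with ZT8 replicate 1 alone and 2.86 without it. The call in Rev-erbα-/- livers was lost without ZT8 replicate 1 (1.28, adjusted p = 0.0571) or replicate 2 (1.35, adjusted p = 0.0540). The difference between the rises, the interaction, was 1.03 (SE 0.42, edgeR adjusted p = 0.219).

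The genotype difference of Ppp1r3c at ZT8 was 0.76 (SE 0.30, edgeR adjusted p = 0.169). It was 0.11 with wild-type ZT8 replicate 1 alone and 1.25 without that replicate (adjusted p = 0.000248, called), so that it depended on which wild-type livers entered. At ZT20 it was -0.27 (2 SE interval -0.85 to 0.32). The plot of genotype differences with wild-type livers left out shows the same for Ugp2, whereas the values for Phka2 stayed between -0.23 and -0.19.

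**Figure D2:**
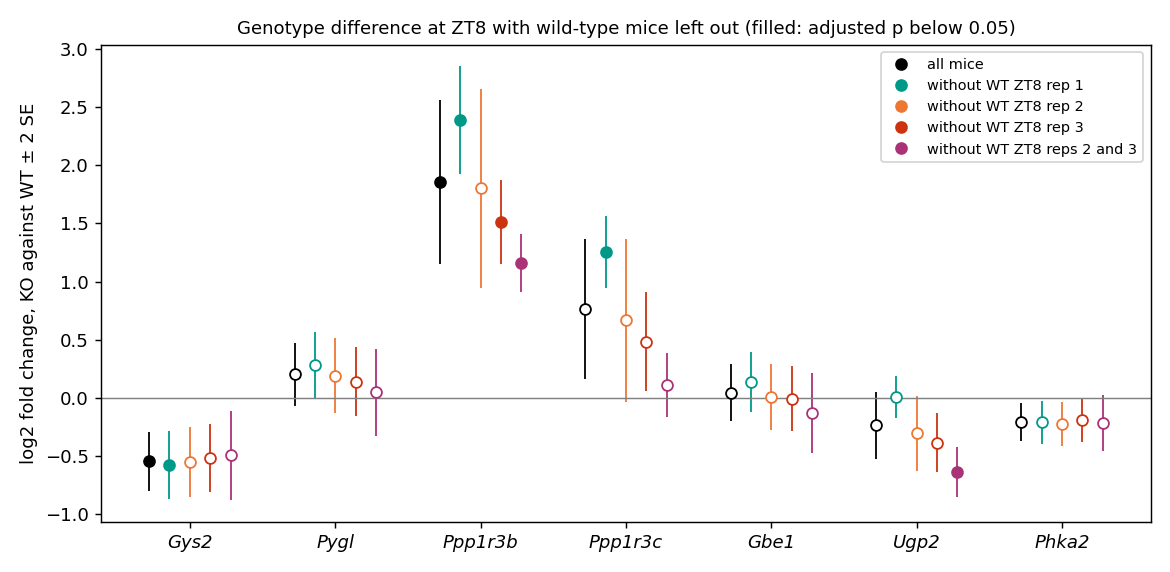
Log2 fold change of Rev-erbα-/- (KO) against wild-type (WT) livers at ZT8 (y axis, ± 2 SE) for the 7 tested members (x axis), with all mice and with wild-type ZT8 mice left out (colours). Filled points have an edgeR adjusted p-value below 0.05. The setting without wild-type replicates 2 and 3 leaves a single wild-type liver, so the spread of that group was not measured there. Ppp1r3b stayed between 1.16 and 2.38, while Ppp1r3c ranged from 0.11 to 1.25 and Ugp2 from -0.63 to 0.0090.

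Ppp1r3g, another targeting subunit (chr13:35958839-35970388, mm10, plus strand), was near the limit of detection. Its raw counts at ZT8 were 6, 9 and 7 in wild-type livers, against 0, 1 and 1 in Rev-erbα-/- livers. At ZT20 they were 4, 9 and 15 in wild-type livers, against 2, 5 and 4 in Rev-erbα-/- livers. At ZT8 each Rev-erbα-/- library was below 3 counts and each wild-type library above. Summed over 3 libraries, 22 against 2 counts gave a ratio of wild-type to Rev-erbα-/- of 9.78 at ZT8, with an exact 95% interval of 2.40 to 85.8, and 28 against 11 counts a ratio of 2.76 at ZT20 (1.33 to 6.14). These intervals cover counting error only. The gene did not pass the filter on low counts. Fitted without that filter, the edgeR adjusted p was 0.0238 at ZT8 and 0.319 at ZT20, and the exact permutation test of 3 against 3 livers gave p = 0.1 at ZT8, the smallest it can give.

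**Figure D3:**
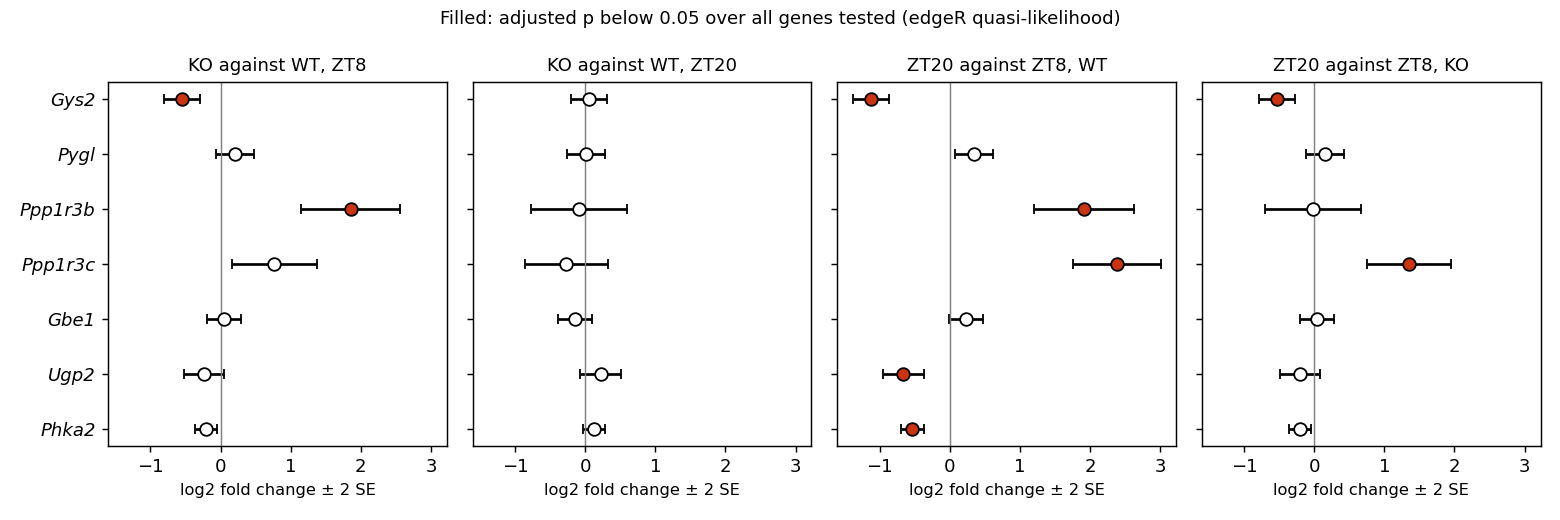
Log2 fold changes ± 2 SE (x axis) of the 7 tested members (rows) between genotypes at ZT8 and ZT20 and between times in wild-type (WT) and Rev-erbα-/- (KO) livers. Filled points have an edgeR adjusted p-value below 0.05 over all 14488 genes. The 5 members called between times in wild-type include Ppp1r3c at 2.38 and Gys2 at -1.12, and the intervals of Ppp1r3b are the widest together with those of Ppp1r3c. The spread behind the intervals is shared by all 4 groups, including wild-type at ZT8, in every panel.

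Per kilobase of annotated exon (GENCODE vM21), which allows levels to be set side by side between genes, the order of the members differed between groups. In wild-type livers at ZT8 the mean level was 149 CPM per kb for Gys2, 126 for Ugp2, 83.2 for Pygl, 34.5 for Ppp1r3b, 20.7 for Gbe1, 17.4 for Ppp1r3c, 5.94 for Phka2 and 0.129 for Ppp1r3g (n = 3 each). Gys2 and Ugp2 overlapped among these livers, as did Ppp1r3b, Gbe1 and Ppp1r3c. In wild-type livers at ZT20 Ppp1r3b came first at 130 CPM per kb, followed by Pygl at 106, Ppp1r3c at 91.2, Ugp2 at 79.5 and Gys2 at 68.3. There Ppp1r3b overlapped with Pygl, and Pygl with Ppp1r3c and Ugp2, whereas Gys2 lay below Ppp1r3c and Ugp2 in every liver. In Rev-erbα-/- livers Ppp1r3b was first at both times, at 125 and 123 CPM per kb, and overlapped with Gys2 at ZT8 and with no other member at ZT20. Gbe1, Phka2 and Ppp1r3g took the last places in the Rev-erbα-/- livers at both times and in wild-type livers at ZT20. The lengths are those of this annotation, which may differ from the one used for counting.

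The other targeting subunits were far below Ppp1r3b and Ppp1r3c. Of them, Ppp1r3e (chr14:54872669-54877550, mm10, minus strand) was at 3.14, 1.69 and 0.864 CPM in wild-type and 2.80, 3.22 and 3.47 CPM in Rev-erbα-/- livers at ZT8. The ZT20 livers were at 7.11, 7.47 and 6.80 CPM in wild-type and 1.55, 1.36 and 1.47 CPM in Rev-erbα-/- livers. The wild-type livers at ZT20 were above and the Rev-erbα-/- livers at ZT20 below all Rev-erbα-/- livers at ZT8. Ppp1r3e was 4.87-fold lower in Rev-erbα-/- livers at ZT20 (log2 fold change -2.28, SE 0.29, edgeR adjusted p = 0.000335). From ZT8 to ZT20 it rose 3.65-fold in wild-type (1.87, SE 0.28, edgeR adjusted p = 0.000215) and fell by 53.8% in Rev-erbα-/- livers (-1.12, SE 0.31, adjusted p = 0.0221). In Rev-erbα-/- livers this call was lost when replicate 2 or 3 at either time was left out (adjusted p up to 0.0845). Its interaction, 2.98 (SE 0.42, edgeR adjusted p = 0.000646), was called. With wild-type ZT8 replicate 1 alone its rise in wild-type was 1.17. Its genotype difference at ZT8 was 0.70 with all livers (adjusted p = 0.172), 0.0079 with that replicate alone and 1.30 without it (adjusted p = 0.00274, called). Ppp1r3f was tested and not called in any comparison, and Ppp1r3a and Ppp1r3d had too few reads to be tested.

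**Figure D4:**
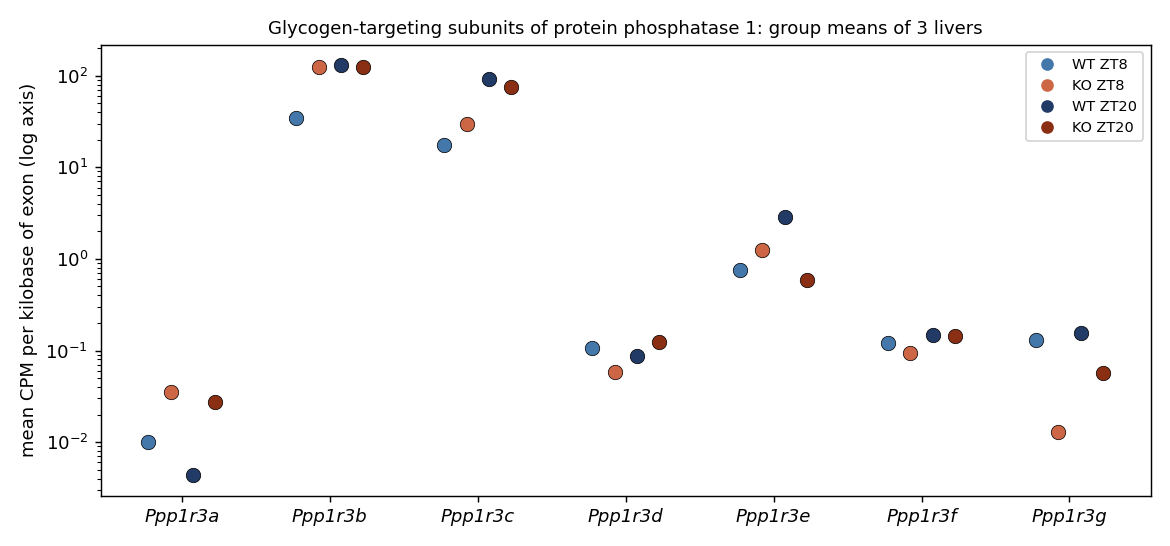
Mean CPM per kilobase of exon (y axis, log scale) of the 7 glycogen-targeting subunits of PP1 (x axis) in the 4 groups (colours, WT: wild-type, KO: Rev-erbα-/-, mean of 3 livers per point). Ppp1r3b and Ppp1r3c reached 130 and 91.2 CPM per kb in wild-type at ZT20, Ppp1r3e 2.84, and Ppp1r3a, Ppp1r3d, Ppp1r3f and Ppp1r3g 0.155 or less in every group.

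The remaining genes of the pathway were taken as 4 lists. Of all genes tested, 8.45% were called at ZT8 and 3.63% at ZT20 between genotypes, and 5.88% in the interaction. Between times 27.7% were called in wild-type and 17.5% in Rev-erbα-/- livers. At an unadjusted p-value under 0.05 (edgeR) were 3404 of the 14488 genes at ZT8, 2116 at ZT20, 2844 in the interaction and 4415 in Rev-erbα-/- livers between times. Of 10 other glycogen enzymes, all tested, none differed between genotypes at either time or in the interaction, 3 rose and 2 fell from ZT8 to ZT20 in wild-type, and 2 rose in Rev-erbα-/- livers. At an unadjusted p-value under 0.05 (edgeR) there were 1 at ZT8, 0 at ZT20 and 1 in the interaction, and DESeq2 called 0 in each. In wild-type those that rose were Gys1, the synthase of muscle and other tissues (log2 fold change 0.49), the phosphoglucomutase counted as Pgm2 (0.22) and the lysosomal glucosidase Gaa (0.26). Those that fell were Gyg, the glycogenin that primes new chains (-0.71), and Stbd1, a glycogen-binding protein (-0.49). In Rev-erbα-/- livers the brain-type phosphorylase Pygb (0.62) and Gaa (0.28) rose. With wild-type ZT8 replicate 1 alone the time differences in wild-type were -0.72 for Gyg, -0.73 for Stbd1, 0.56 for Gys1, 0.08 for Pgm2 and 0.25 for Gaa. Without it only Gyg, Stbd1 and Pgm2 of these were called.

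Of 17 kinases and phosphatases of the pathway, 14 were tested. Between genotypes none was called at ZT8 (edgeR; 4 at an unadjusted p-value under 0.05, and 1, Prkar1a, called by DESeq2), and Ppp1r3e alone at ZT20 and in the interaction. From ZT8 to ZT20 in wild-type 3 rose, Ppp1r3e and the protein kinase A subunits Prkaca (0.35) and Prkar2a (0.50), and 2 fell, the synthase kinase Gsk3a (-0.23) and the protein kinase A subunit Prkacb (-0.55). In Rev-erbα-/- livers 3 rose, Prkaca (0.46), Prkar2a (0.39) and Gsk3b (0.33), and 4 fell, Ppp1r3e, Gsk3a (-0.25), Prkacb (-0.24) and Prkar1a (-0.23). In wild-type between times, with ZT8 replicate 1 alone, the differences were -0.41 for Prkacb, 0.54 for Prkar2a, 0.24 for Prkaca and -0.26 for Gsk3a. Without that replicate Gsk3a was not called, Ppp1ca was (0.27), and at ZT8 Ppp1r3e and Prkacb (-0.28) were called between genotypes.

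Of 4 genes for entry and exit of glucose 6-phosphate, none was called between genotypes or in Rev-erbα-/- livers between times, whereas in wild-type 1 rose and 2 fell from ZT8 to ZT20. At an unadjusted p-value under 0.05 (edgeR) there were 3 at ZT8, 0 at ZT20, 2 in the interaction and 1 in Rev-erbα-/- livers between times, and DESeq2 called 1, 0, 0 and 1. The gene that rose was G6pc, the catalytic subunit of glucose 6-phosphatase (log2 fold change 1.01), and those that fell were the glucose 6-phosphate carrier Slc37a4 (-0.45) and the glucose transporter Slc2a2 (-0.58). The G6pc difference was 1.16 with wild-type ZT8 replicate 1 alone. Without that replicate the calls of G6pc (0.92, edgeR adjusted p = 0.0525) and Slc2a2 (-0.42, adjusted p = 0.0554) were lost. Without it, 1 of the 4 genes was called between genotypes at ZT8 (edgeR). Of 7 hormone receptors and insulin signalling genes, the α1B-adrenergic receptor Adra1b was higher in Rev-erbα-/- livers at ZT8 (0.40, edgeR adjusted p = 0.0313). That difference was 0.15 with wild-type ZT8 replicate 1 alone and 0.55 without it (adjusted p = 0.00133). From ZT8 to ZT20 Adra1b rose by 1.01 in wild-type and by 0.56 in Rev-erbα-/- livers on the log2 scale, and the insulin receptor Insr fell in wild-type (-0.60). With wild-type ZT8 replicate 1 alone these wild-type differences were 0.75 for Adra1b and -0.49 for Insr. No gene of this list was called between genotypes at ZT20 or in the interaction (edgeR), where 1 and 2 were at an unadjusted p-value under 0.05 and DESeq2 called 0 and 1 (Insr).

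Markers of other cells and of the acute phase were read beside these results. Of all 14488 genes tested, 3404 at ZT8 and 2116 at ZT20 were at an unadjusted p-value under 0.05 between genotypes (edgeR). Between genotypes at ZT8 all 6 acute-phase transcripts were lower in Rev-erbα-/- livers and 1 of 5 cholangiocyte markers, Sox9, was higher (log2 fold change 1.20). edgeR called no hepatocyte, Kupffer cell, endothelial, stellate cell or leukocyte marker there, but 3 of 5 hepatocyte markers (list median 0.42), 3 of 4 Kupffer cell markers (list median -0.47) and 1 of 5 stellate cell markers were at an unadjusted p-value under 0.05, and DESeq2 called Apoa1, Cps1, Ttr, Cd5l, Csf1r and Lrat. At ZT20 edgeR called none, with 1 Kupffer cell, 1 endothelial, 2 stellate cell, 1 cholangiocyte and 2 leukocyte markers at an unadjusted p-value under 0.05, and DESeq2 called Reln, Sox9, S100a8 and S100a9. With wild-type ZT8 replicate 1 alone, the genotype difference at ZT8 was 0.90 for Sox9 and from -0.83 (Saa1) to 0.11 (Lcn2) for the acute-phase transcripts. In wild-type between times the acute-phase transcripts were then at -0.43 (Saa3) to 0.60 (Lcn2), and Alb, Cps1 and Ttr at 0.47, 0.74 and 0.15. Without that replicate Ttr, Cd5l, Csf1r and Vsig4 were called at ZT8 beside Sox9 and the acute-phase transcripts (edgeR). From ZT8 to ZT20 in wild-type all 6 acute-phase transcripts fell (edgeR). Of 5 hepatocyte markers 3 rose, and 1 of 4 Kupffer cell markers (Cd5l, -0.85) and 1 of 5 stellate cell markers (Reln, -0.30) fell. Of 5 cholangiocyte markers, Krt19 (1.35) and Sox9 (1.08) rose. Spp1 of that list was lower, not called by edgeR (-0.96, adjusted p = 0.0762) but called by DESeq2. These 5 summed to 37.9 to 94.7 CPM at ZT8 and 41.9 to 43.9 CPM at ZT20. With wild-type ZT8 replicate 1 alone the differences were 0.71 for Krt19, 0.78 for Sox9, -0.0048 for Spp1, -0.34 for Cd5l and -0.25 for Reln. Hepatocyte markers summed to 48324 to 70336 CPM in wild-type at ZT8 and 91940 to 102172 CPM at ZT20. Most of this sum was Alb, at 33732 to 52447 CPM at ZT8 and 70243 to 77172 CPM at ZT20. Apoa1 (0.17) and Serpina1a (0.12) were not called between times in wild-type. The part of all these markers in the member results was not tested.

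For each member called in a comparison, the genes whose log2 CPM followed it most closely were listed among all genes tested, over the 12 libraries, which share the 4 groups. For Gys2 these were Lrp4 (Pearson's r = 0.986), Psmd9 (0.979) and Dhtkd1 (0.979), and for Ppp1r3c they included Sec14l2 (0.989) and Aqp8 (0.988). For Ppp1r3b they were Gas7 (0.968), Cyp4f14 (0.967) and Sumo3 (0.967), for Phka2 Bcl2l14 (0.966), Zc3h7b (0.962) and Ankrd17 (0.959), and for Ugp2 Klf1 (0.945), Carhsp1 (0.926) and Lclat1 (0.905). Among the members themselves Gys2 was closest to Phka2 (0.941) and most opposed to Ppp1r3c (-0.888). These values describe 12 livers in which time and genotype move many genes together.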

How the data were processed

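Poly(A) RNA of 12 livers was sequenced by the authors, mapped to mm10 with TopHat and counted per gene symbol with HTSeq-count (uniquely mapped reads, union mode, strand ignored); they tested with DESeq2 1.6.3. The deposited values are raw whole-number counts, 1 file per liver, with 17641809 to 26060192 reads on genes. Groups came from the sample labels. Nothing beyond the label shows how the mice of a group were sampled, so p-values measure the spread between these livers. Here low counts were removed with filterByExpr (minimum count 10), leaving 14488 genes, libraries were scaled by TMM, and 4 group means were fitted over 12 samples with edgeR 4.0.16 (robust quasi-likelihood, R 4.3.3). SE is the log2 fold change divided by the square root of F. Alternatives were DESeq2 1.42.0, other scalings and filters, a replicate block, the compared groups alone and samples left out. The text names all members, list genes called or defining a list, and the 3 genes most correlated with each called member. Ppp1r3e is described at length because of its values. Members and lists were chosen with earlier results of these data known. The fits were tested on simulated data. Symbols of the Pgm genes differ between annotations, so those genes were not placed. The Kupffer cell list has 4 of 5 genes in the files. Some genes of the lists and of the correlated genes are not reported here.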

Additional observations from a re-analysis of the deposited data

Results flagged for a closer look

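The genotype difference of Ppp1r3e, a targeting subunit of protein phosphatase 1, was not the same at the 2 times by the test of the difference itself. The interaction was 2.98 on the log2 scale (edgeR adjusted p = 0.000646), from 0.70 at ZT8 (adjusted p = 0.172) to -2.28 at ZT20 (adjusted p = 0.000335). The ZT8 difference was 0.0079 with wild-type ZT8 replicate 1 alone and 1.30 without it (adjusted p = 0.00274). Over 19 alternatives the interaction ranged from 2.29 to 3.58 and was called in each. Wild-type ZT8 replicates 1, 2 and 3 were at 3.14, 1.69 and 0.864 CPM, and the cause of this spread was not tested.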

How the results depend on the processing

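All 5 member calls between times in wild-type held under each of 20 alternatives, with Ppp1r3b closest to the threshold (adjusted p up to 0.0498). The number of members called moved elsewhere. On the 6 samples compared it was 0 at ZT8 between genotypes (Ppp1r3b 1.85, adjusted p = 0.123; 768 genes in all) and 1 in Rev-erbα-/- livers between times. The interaction called 1 member with total counts (Gys2), 1 with at least 10 counts in every sample (Ppp1r3b, adjusted p = 0.0497), 2 with DESeq2 (both) and 2 without wild-type ZT8 replicates 2 and 3 (Ppp1r3b and Ugp2). Without those 2 livers, all genes called numbered 346 at ZT8 between genotypes (1224 with them), 493 in the interaction (852) and 1795 in wild-type between times (4018). Leaving out 1 liver at a time gave 0 to 4 members at ZT8, 0 to 0 at ZT20, 0 to 2 in the interaction, 5 to 7 in wild-type and 1 to 2 in Rev-erbα-/- livers between times, and 542 to 1811, 239 to 656, 493 to 1260, 2861 to 4197 and 1567 to 2845 genes in all. Directions that turned were not called in either fit. Over fits without 1 liver, Gbe1 at ZT8 ranged from -0.0050 to 0.14 (-0.13 without wild-type replicates 2 and 3), Ugp2 at ZT8 from -0.38 to 0.0090, Pygl at ZT20 from -0.13 (-0.0081 in another) to 0.19, and between times in Rev-erbα-/- livers Ppp1r3b from -0.054 to 0.030 and Gbe1 from -0.036 to 0.13. The cause was not tested. Equal replicate numbers did not pair the livers (correlations of deviations from the group means -0.083 to 0.074 over 12 pairs), and a fit with the replicate number as a block called 2, 0, 0, 5 and 2 members and 1210, 479, 831, 3889 and 2399 genes. At 3 mice per group the exact permutation test cannot go below p = 0.1, and Ppp1r3g is limited by depth.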
